A study of Mus musculus with 14 samples.

Results

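The genes described here are 8 regulators that switch lipid synthesis on and off in the liver: Srebf1 and Srebf2, which encode the sterol regulatory element binding proteins SREBP-1 and SREBP-2, their escort Scap, the retention factors Insig1 and Insig2, the proteases Mbtps1 and Mbtps2, and Mlxipl, which encodes the carbohydrate response element binding protein ChREBP. The set is defined by these gene names, and all 8 were measured among 22180 genes, each by its brightest probe set with exactly 1 gene symbol. Livers of 14 male mice of the inbred strain C57BL/6J were profiled on Affymetrix arrays that probe whole transcripts, with 1 array for each liver. The sample titles placed 7 mice (1, 2, 3, 5, 6, 10 and 13) in a sleep deprivation group and 7 (4, 7, 8, 9, 11, 12 and 14) in a control group, and the series title gives the deprivation as a single period of 6 h. The study asked how this affects glucose tolerance and liver fat. Sleep was disturbed in the study by gentle handling, a water platform or changes of cage, and which of these the profiled mice underwent is not stated in the labels, nor are age, feeding, time of day or the handling of the controls. Each sample was taken as 1 mouse, although the labels only number the samples, so that p-values measure the spread between these samples.

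SREBP-1 and SREBP-2 are made as membrane proteins of the endoplasmic reticulum. Scap escorts them to the Golgi apparatus, where the site-1 protease (Mbtps1) and the site-2 protease (Mbtps2) cut them in turn and release the part that enters the nucleus. When sterols are plentiful, Insig proteins bind Scap and hold the complex back. In the liver, SREBP-1c mainly drives fatty acid synthesis and its gene is induced by insulin and liver X receptors, SREBP-2 mainly drives cholesterol synthesis, and ChREBP responds to glucose. Insig1 is itself an SREBP target gene, while a liver form of the Insig2 transcript is known to be repressed by insulin. Messenger RNA levels, as measured here, do not report the cleavage of these proteins.

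Array medians lay between 3.443 and 3.491 and correlations between arrays between 0.984 and 0.9903. The first principal component held 23.95% of the variance and placed the groups apart. Markers of 8 cell types were looked at. Hepatocyte markers had a mean log2 level of 11.22 to 11.34 in controls and 11.30 to 11.41 after sleep deprivation, with 3 of 10 higher. Markers of sinusoidal endothelial cells were higher for 2 of 8 (7.24 to 7.55 and 7.43 to 7.83), of Kupffer cells for 1 of 8 (5.78 to 7.01 and 5.97 to 6.81), of stellate cells for 1 of 9 (6.57 to 6.90 and 6.53 to 7.00) and of cholangiocytes for 1 of 5 (3.68 to 3.83 and 3.71 to 4.19). Of 6 lymphocyte markers 1 was lower, and of 5 adipocyte and 5 pancreatic acinar markers 0 passed in limma, with 0 at an unadjusted p under 0.05. That unadjusted count was 4 for hepatocyte, 5 for sinusoidal endothelial and 3 for stellate cell markers. It was 1 each for Kupffer cell, cholangiocyte and lymphocyte markers, and 4293 for all 22180 genes. Of all genes, 3.88% passed upwards and 4.62% downwards, and of the brighter genes tested alone 20.4% passed in either direction. The part of these markers in the differences of the regulators was not tested, and in whole liver a change in the number of cells of a type and a change in RNA per cell cannot be told apart.

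Of the 8 regulators, 1 was higher and 3 were lower after sleep deprivation (limma, a linear model with a moderated variance fitted across all genes, with p-values adjusted by Benjamini-Hochberg and a threshold of 0.05). Insig2 rose, and Srebf1, Insig1 and Scap fell, Scap only slightly. Srebf2, Mlxipl, Mbtps1 and Mbtps2 did not pass the test. Over all genes, 8.5% passed it, 3.88% upwards and 4.62% downwards. All 8 regulators were among the 11090 brighter genes, of which 20.4% passed when those were tested alone. Values of the groups did not overlap for 3 of the 8 (Srebf1, Insig1 and Insig2) and for 3.13% of all genes. By the size of the difference in either direction, Srebf1 ranked 21, Insig2 ranked 25 and Insig1 ranked 118 among the 22180 genes. The 8 regulators were chosen with earlier results of these data known, so setting them beside all genes is a description and no test.

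**Figure D1:**
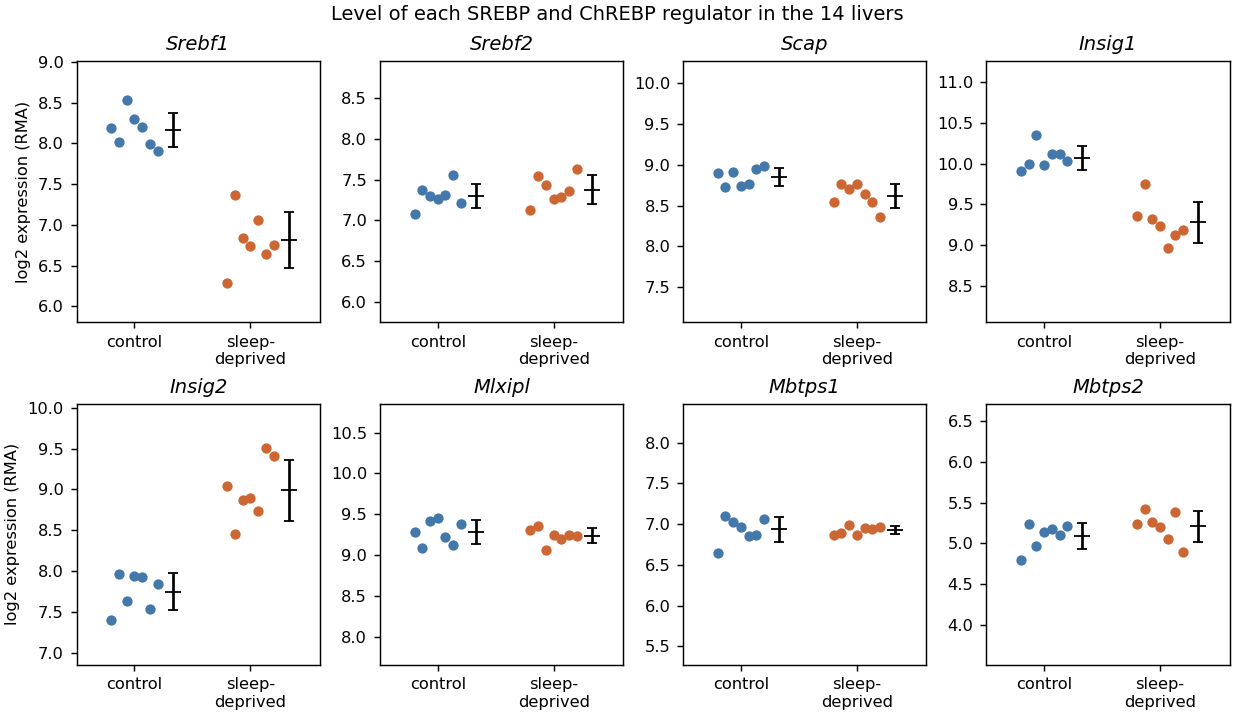
Log2 expression of each regulator (vertical axes, all spanning the same number of log2 units) in the 7 control mice (blue) and the 7 sleep-deprived mice (orange), 1 point per mouse in the order of the sample numbers, with the mean and SD as black bars. The groups stand apart for Srebf1, Insig1 and Insig2 and overlap for the other 5 genes.

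Windows before the start sites of the genes that moved most are shown first, because Srebf1 and Insig1 moved one way and Insig2 the other. Where a gene had several start sites, the window with the most motif matches was taken. The sequences come from RefSeq (build GRCm38.p6), which had entries for all 8 regulators, 14 start sites in all, and the 250 bases before each start were read. The windows below are those of Insig1 (chr5:28071162-28071411, plus strand), of the most downstream of 3 Srebf1 start sites (chr11:60210472-60210721, minus strand), of the most upstream of 3 Insig2 start sites (chr1:121332590-121332839, minus strand) and of Srebf2 (chr15:82147019-82147268, plus strand), which did not pass the test. They are written 5′ to 3′ on the strand of the gene. Capitals mark matches on either strand to CCAAT (the NF-Y box), GGGCGG (the GC box) and CACGTG (the E-box). NF-Y and Sp1, which bind the first and second of these, are known partners of SREBPs on DNA.
Insig1: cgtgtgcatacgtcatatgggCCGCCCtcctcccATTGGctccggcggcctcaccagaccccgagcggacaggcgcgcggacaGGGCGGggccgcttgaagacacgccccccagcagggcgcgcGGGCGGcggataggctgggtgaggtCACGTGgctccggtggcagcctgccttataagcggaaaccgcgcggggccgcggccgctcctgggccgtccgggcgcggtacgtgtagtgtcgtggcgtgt
Srebf1: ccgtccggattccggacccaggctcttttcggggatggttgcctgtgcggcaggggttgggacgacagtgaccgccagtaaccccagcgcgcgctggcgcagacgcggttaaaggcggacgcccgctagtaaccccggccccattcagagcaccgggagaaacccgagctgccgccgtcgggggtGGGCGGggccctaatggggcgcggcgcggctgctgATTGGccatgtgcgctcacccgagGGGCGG
Insig2: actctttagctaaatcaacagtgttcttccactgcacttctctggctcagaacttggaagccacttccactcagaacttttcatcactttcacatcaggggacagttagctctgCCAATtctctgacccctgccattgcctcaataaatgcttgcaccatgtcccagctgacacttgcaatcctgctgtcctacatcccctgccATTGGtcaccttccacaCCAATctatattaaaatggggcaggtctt
Srebf2: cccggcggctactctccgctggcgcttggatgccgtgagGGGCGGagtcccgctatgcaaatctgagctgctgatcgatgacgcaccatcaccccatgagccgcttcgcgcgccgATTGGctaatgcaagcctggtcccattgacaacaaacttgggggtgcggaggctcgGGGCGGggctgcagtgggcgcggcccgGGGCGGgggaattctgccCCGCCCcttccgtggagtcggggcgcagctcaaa

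The Insig1 window held 1 NF-Y box, 3 GC boxes and 1 E-box, the Srebf1 window 1 NF-Y box and 2 GC boxes, and the Srebf2 window 1 NF-Y box and 4 GC boxes. Their GC contents were 72.8%, 70.8% and 67.6%, against a median of 52.4% over all windows. The Srebf1 window had been picked for its matches. Of the other Srebf1 windows, 1 held 2 GC boxes and no NF-Y box at 63.2%, and 1 held 1 NF-Y box and no GC box at 54.4%. The Insig2 window shown held 3 NF-Y boxes and no GC box at a GC content of 47.2%, while the windows of the other Insig2 start sites each held 1 GC box and no NF-Y box, at 69.6% and 56.8%. Among 32851 windows of this length an NF-Y box stood in 33.8%, a GC box in 32.7% and an E-box in 6.02%. Of the 14 windows of the regulators, 6 held an NF-Y box, 9 a GC box and 3 an E-box (1 each of Insig1, Scap and Mlxipl). Windows of 1 gene can overlap, as those of Scap do. The sterol element TCACNCCAC, found in 1.05% of all windows, matched in 1 of the 14, before the downstream start site of Mlxipl. Pairs of CACGTG with 5 bases between them (a strict form of the carbohydrate response element) matched in none of the 14, and in 0% of all windows. Pairs of AGGTCA with 4 between them (a strict form of the DR4 element of liver X receptors) matched in none of the 14, and in 0.0152% of all. Strings this rare would be missing from nearly any 14 windows, and looser matches were not looked for, so these misses do not show that such elements are absent. GC boxes and GC content go together, and the array does not tell which start site was used.

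Srebf1 had the largest difference of the 8. Its log2 level ran from 7.91 over a median of 8.19 to 8.53 in the controls, and from 6.29 over 6.75 to 7.37 in the sleep-deprived mice. Every sleep-deprived mouse was below every control, with a gap of 0.54 between the groups. Mouse 1 was lowest, and mouse 2 came nearest to the controls. The mean fell from 8.16 ± 0.21 to 6.82 ± 0.34 (SD, n = 7 each), a log2 difference of -1.35 ± 0.13 (moderated SE, as for the differences below), which leaves 39.3% of the control level (95% interval of the log2 difference -1.61 to -1.09, limma, adjusted p = 1.15e-06). The probe set sums over the gene and does not tell the SREBP-1a and SREBP-1c transcripts apart.

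Srebf2, the paralogue that serves cholesterol synthesis, had a log2 level between 7.08 and 7.56 in the controls (median 7.30) and between 7.13 and 7.63 in the sleep-deprived mice (median 7.36). The ranges overlapped almost in full. Its log2 difference was 0.080 ± 0.079 (95% interval -0.085 to 0.24, limma, adjusted p = 0.676), so the interval holds rises of up to 0.24 and falls of up to 0.085. The difference between the paralogues was tested directly by taking Srebf1 minus Srebf2 within each array and comparing the groups. Srebf1 moved by -1.43 ± 0.15 (SE) relative to Srebf2 (exact permutation test over 3432 assignments, two-sided, p = 0.000583, the smallest this test can give, adjusted p = 0.000874 over 6 pairs of regulators), without overlap between the groups.

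The Insig genes moved in opposite directions. Insig1 had log2 levels from 9.90 over 10.03 to 10.35 in the controls and from 8.97 over 9.24 to 9.75 in the sleep-deprived mice. All sleep-deprived mice lay below all controls, by a gap of 0.15, with mouse 6 lowest and mouse 2 highest among them. Its mean fell from 10.07 ± 0.14 to 9.28 ± 0.25 (SD, n = 7 each), to 57.8% of the control level (log2 difference -0.79 ± 0.091, 95% interval -0.98 to -0.60, limma, adjusted p = 1.04e-05).

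Insig2 ran from 7.39 over 7.84 to 7.96 in the controls and from 8.45 over 8.90 to 9.51 in the sleep-deprived mice. Here the sleep-deprived mice were all above the controls, by a gap of 0.49, with mice 10 and 13 highest and mouse 2 lowest. The mean rose from 7.75 ± 0.22 to 8.99 ± 0.37 (SD, n = 7 each), a 2.37-fold rise (log2 difference 1.24 ± 0.13, 95% interval 0.96 to 1.52, limma, adjusted p = 5.58e-06). Insig1 minus Insig2 within each array differed between the groups by -2.03 ± 0.23 (SE, exact permutation test, two-sided, p = 0.000583, adjusted p = 0.000874), again without overlap. Each gene alone already separated the groups, in opposite directions, so this outcome followed from the separate results and is no further evidence. Levels of the 2 genes themselves were not compared, since different probes differ in brightness.

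Insig1 also moved apart from Srebf2, by -0.87 ± 0.11 (SE without moderation, as for all pairs, exact permutation test, two-sided, adjusted p = 0.000874). It fell by less than Srebf1, which changed by -0.56 ± 0.15 relative to it (SE, exact permutation test, two-sided, p = 0.00291, adjusted p = 0.00350). The groups overlapped in the last of these. Sleep-deprived mouse 2 was the one nearest to the control mean for Srebf1, Insig1, Insig2 and Scap alike.

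**Figure D2:**
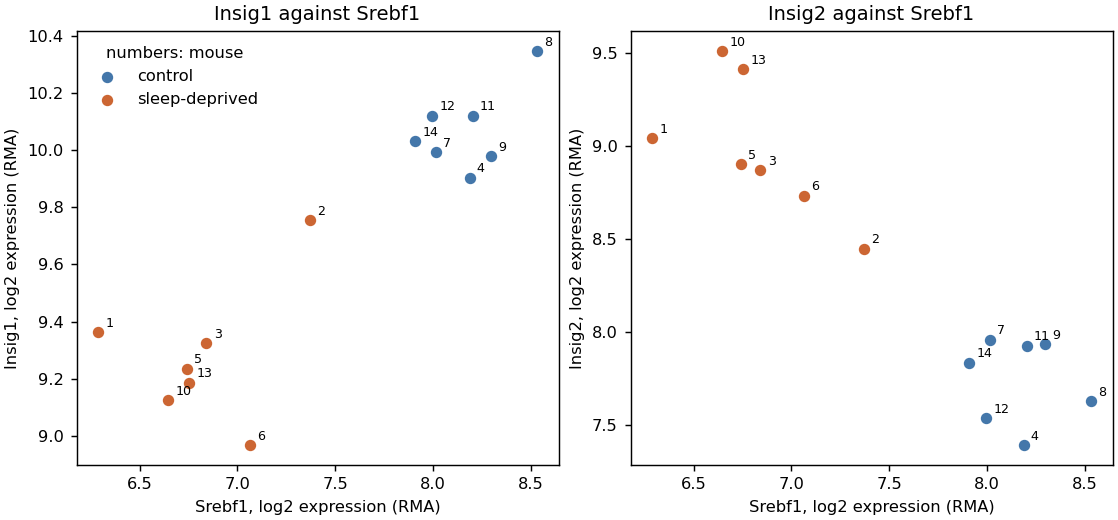
Log2 expression of Insig1 (left) and Insig2 (right) against that of Srebf1 in the 7 control (blue) and 7 sleep-deprived (orange) mice, with the sample number beside each point. The groups separate along all 3 genes, and sleep-deprived mouse 2 lies nearest to the controls in both panels.

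Scap, the escort that carries SREBPs to the Golgi, had log2 levels from 8.72 over 8.90 to 8.99 in the controls and from 8.36 over 8.64 to 8.77 in the sleep-deprived mice. In 5 of the 7 sleep-deprived mice it was below all controls, and the ranges overlapped narrowly. The mean fell from 8.86 ± 0.11 to 8.62 ± 0.15 (SD, n = 7 each), to 84.8% of the control level (log2 difference -0.24 ± 0.065, 95% interval -0.37 to -0.10, limma, adjusted p = 0.0254). This call was lost without sleep-deprived mouse 1, 10 or 13 or control mouse 8, 12 or 14, at adjusted p between 0.0514 and 0.0561. It was also lost without the intensity trend (adjusted p = 0.0505) and when both probe sets were averaged (log2 difference -0.14, adjusted p = 0.147). The second probe set of Scap stood at 3.47 ± 0.086 in controls and 3.43 ± 0.058 in sleep-deprived mice, at the median brightness of an array.

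The proteases that release SREBPs did not pass the test. Mbtps1 ranged from 6.65 to 7.11 in the controls (median 6.97) and from 6.87 to 6.99 in the sleep-deprived mice (median 6.94). All sleep-deprived values lay inside the range of the controls. Its log2 difference was -0.010 ± 0.065 (95% interval -0.15 to 0.13, limma, adjusted p = 0.964). Mbtps2 ranged from 4.80 to 5.24 in controls (median 5.14) and from 4.89 to 5.43 in sleep-deprived mice (median 5.24), where 3 mice were above all controls.

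The log2 difference of Mbtps2 was 0.12 ± 0.088 (95% interval -0.067 to 0.30, limma, adjusted p = 0.547). A further probe set, annotated to both Mbtps2 and Yy2 and therefore not used, stood at 4.06 ± 0.16 and 4.03 ± 0.14. Relative to Mbtps2, Mbtps1 moved by -0.13 ± 0.090 (SE, exact permutation test, two-sided, p = 0.186), a difference that did pass without sleep-deprived mouse 13 (-0.19, adjusted p = 0.0280).

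Mlxipl, the gene of ChREBP, ranged from 9.09 over 9.29 to 9.45 in the controls and from 9.06 over 9.25 to 9.36 in the sleep-deprived mice. Only 1 sleep-deprived mouse, mouse 3, was below all controls. Its log2 difference was -0.047 ± 0.061 (95% interval -0.17 to 0.080, limma, adjusted p = 0.768). Srebf1 moved by -1.30 ± 0.15 relative to Mlxipl (SE, exact permutation test, two-sided, adjusted p = 0.000874), with no overlap between the groups.

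**Figure D3:**
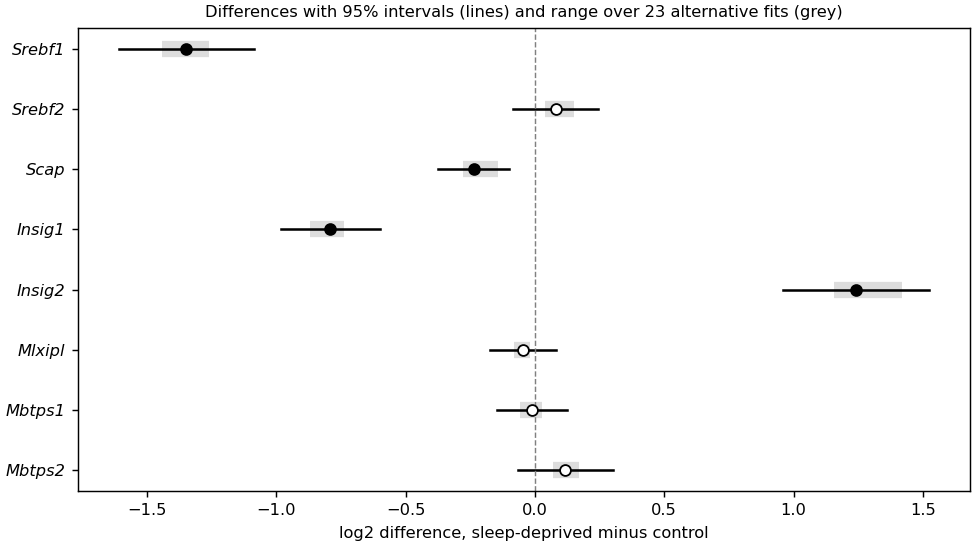
Log2 difference, sleep-deprived minus control, of the 8 regulators (points; filled where adjusted p was under 0.05) with 95% intervals from the model (lines) and the range of the difference over 23 alternative fits (grey bars). Srebf1 at -1.35, Insig1 at -0.79 and Insig2 at 1.24 lie clear of 0 in all fits, and Srebf2, Mlxipl, Mbtps1 and Mbtps2 have intervals that hold 0.

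Variation between mice of the same group was compared next, after subtracting the group means, as a description over 14 arrays. Among the 28 pairs of regulators the residuals of Scap and Insig2 had the strongest correlation (r = -0.754), followed by Srebf1 and Insig2 (r = -0.519). Next came Insig2 with Mbtps1 (r = 0.417), and Insig1 with Insig2 (r = -0.41) and with Srebf1 (r = 0.407). Levels on one array share its RNA and its normalization. The genes most like each regulator by this measure, among the 5795 others with a mean log2 level of 6 or more, were Map2k3 for Srebf1 (r = 0.881), AI837181 for Srebf2 (0.81), Gstm7 for Scap (0.92) and Tmem129 for Insig1 (0.848). For Insig2 they were Cpeb4 (0.93), Osbpl11 (0.915) and Shld2 (0.911). Zfp609 (0.852), Pik3ca (0.91) and Cdk6 (0.859, among 5796) were most like Mlxipl, Mbtps1 and Mbtps2. Each was picked as the highest of all these correlations over 14 arrays and is given without a test. Of the 24 genes in the top 3 of a regulator, 3 passed the comparison of the groups (Osbpl11 and Shld2 higher, Cdk6 lower), or 12.5%. The share was 8.5% over all genes and 20.4% over the brighter genes tested alone.

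Relations of regulators with target genes were tested within each group of 7, since the groups form separate clusters, as 7 pairs in 2 groups and so 14 relations. None passed after adjustment. Without adjustment Srebf1 with Fasn, by both measures, and Srebf1 with Insig2, by rank alone, were under 0.05, both in the sleep-deprived mice. The closest was Srebf1 with Fasn, the fatty acid synthase, in the sleep-deprived mice (Pearson r = 0.881, exact permutation p = 0.00873, adjusted p = 0.122; Spearman rho = 0.929, exact permutation p = 0.00675, adjusted p = 0.0945; r = 0.789 without the 2 mice farthest from the median of Srebf1). In controls the same pair gave r = 0.74 (exact permutation p = 0.0562, adjusted p = 0.28) and rho = 0.429 (exact permutation p = 0.354, adjusted p = 0.619). That relation rested on 2 mice, with r = -0.314 without them. Srebf1 and Insig2 in the sleep-deprived mice had r = -0.665 (exact permutation p = 0.0972, adjusted p = 0.34) and rho = -0.821 (exact permutation p = 0.0341, adjusted p = 0.239), with r = -0.773 without the 2 farthest mice. In controls this pair gave r = -0.133 (exact permutation p = 0.771, adjusted p = 0.83) and rho = 0.107 (exact permutation p = 0.84, adjusted p = 0.905), with r = 0.203 without 2 mice, and the difference between the groups was not tested. For Insig1 and its fellow SREBP target Hmgcs1 the sleep-deprived mice gave r = 0.726 (exact permutation p = 0.0599, adjusted p = 0.28) and rho = 0.536 (exact permutation p = 0.236, adjusted p = 0.619), which rested on 2 mice (r = -0.372 without them). In controls it gave r = 0.421 (exact permutation p = 0.346, adjusted p = 0.639) and rho = 0.536 (exact permutation p = 0.236, adjusted p = 0.619), with r = 0.703 without 2 mice.

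Genes that these regulators control were counted in lists drawn from textbook knowledge, but chosen with earlier results of these data known. Setting the list counts beside the shares over all genes is therefore a description and no test. The median log2 difference over all genes was -0.0048. For comparison with the lists, 8.5% of all genes passed, 3.88% upwards and 4.62% downwards, and 20.4% of the brighter genes tested alone. The list counts here and below come from the fit on all genes. The share of the brighter genes comes from a separate fit on 11090 genes, with its own adjustment. Of 17 measured lipogenic targets of SREBP-1, 1 rose, 4 fell and 12 did not pass, with a median of -0.033. The falls were those of Gpam, which starts glycerolipid synthesis (-0.30 ± 0.052), Mid1ip1, an activator of acetyl-CoA carboxylase (-0.63 ± 0.11, and -0.36 with its probe sets averaged), Acly, which makes cytosolic acetyl-CoA (-0.47 ± 0.11), and Acss2, another source of acetyl-CoA (limma, adjusted p from 0.000845 to 0.00756). Gpam had levels of 9.84 to 10.13 in controls and 9.59 to 9.88 in sleep-deprived mice, 6 of which were below all controls. Acacb, the acetyl-CoA carboxylase of the mitochondrial surface, rose by 0.70 ± 0.15 (limma, adjusted p = 0.00462).

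Fasn and Scd1, the stearoyl-CoA desaturase, did not pass although Srebf1 was at 39.3% of its control level. Fasn ranged from 8.33 to 9.69 in controls and from 8.42 to 9.31 in sleep-deprived mice (log2 difference -0.090 ± 0.16, limma, adjusted p = 0.847). Scd1 was at 12.45 ± 0.14 and 12.48 ± 0.12 (SD, n = 7 each, limma, adjusted p = 0.897). Pnpla3, a lipid droplet lipase, was near the median brightness of an array at 3.90 ± 0.12 and 3.94 ± 0.15 (limma, adjusted p = 0.895).

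Of 19 measured cholesterol synthesis and uptake targets of SREBP-2, 0 rose, 8 fell and 11 did not pass, with a median of -0.37. Falls made up 4.62% of all genes, and 20.4% of the brighter genes tested alone passed in either direction. In limma 12 of the 19 had an unadjusted p under 0.05, as did 4293 of all 22180 genes. The lowest and highest differences were -1.05 and 0.17. Fdft1, the squalene synthase, ranged from 8.71 to 9.06 in controls and from 7.77 to 8.43 in sleep-deprived mice, and Sc5d, a sterol desaturase, from 10.26 to 10.44 and from 9.40 to 9.95. Both were lower in every sleep-deprived mouse than in any control. Msmo1, a sterol demethylase, changed by -1.05 ± 0.20 and Hmgcs1, which feeds the mevalonate pathway, by -0.81 ± 0.16 (limma, adjusted p = 0.00166 and 0.00181). The sterol carrier Stard4 was at 59.4% of its control level. Genes of 1 list are not independent observations.

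ChREBP targets numbered 13 measured, of which 4 rose, 1 fell and 8 did not pass, with a median of 0.16. The share that passed was 8.5% over all genes and 20.4% over the brighter genes tested alone. Fgf21, a liver hormone gene, rose by 1.37 ± 0.22, G6pc, the glucose-6-phosphatase, by 0.55 ± 0.12, Klf10 by 0.39 ± 0.11 and Txnip, a brake on glucose uptake, by 0.51 ± 0.14 (limma, adjusted p = 0.0308). The call of Txnip did not hold in 7 of 14 leave-one-out fits (without sleep-deprived mouse 2, 5, 10 or 13 or control mouse 4, 9 or 12, adjusted p up to 0.0725) and with robust estimation (0.0868). That of Klf10 was lost without sleep-deprived mouse 5 (0.0522) and with the sample number as a covariate (0.0502). Slc2a2, the liver glucose transporter, fell by 0.27 on the log2 scale. Pklr, the liver pyruvate kinase, was at 10.39 ± 0.18 and 10.42 ± 0.20 (limma, adjusted p = 0.926). Fgf21, G6pc, Klf10 and Txnip are also induced by other regulators.

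**Figure D4:**
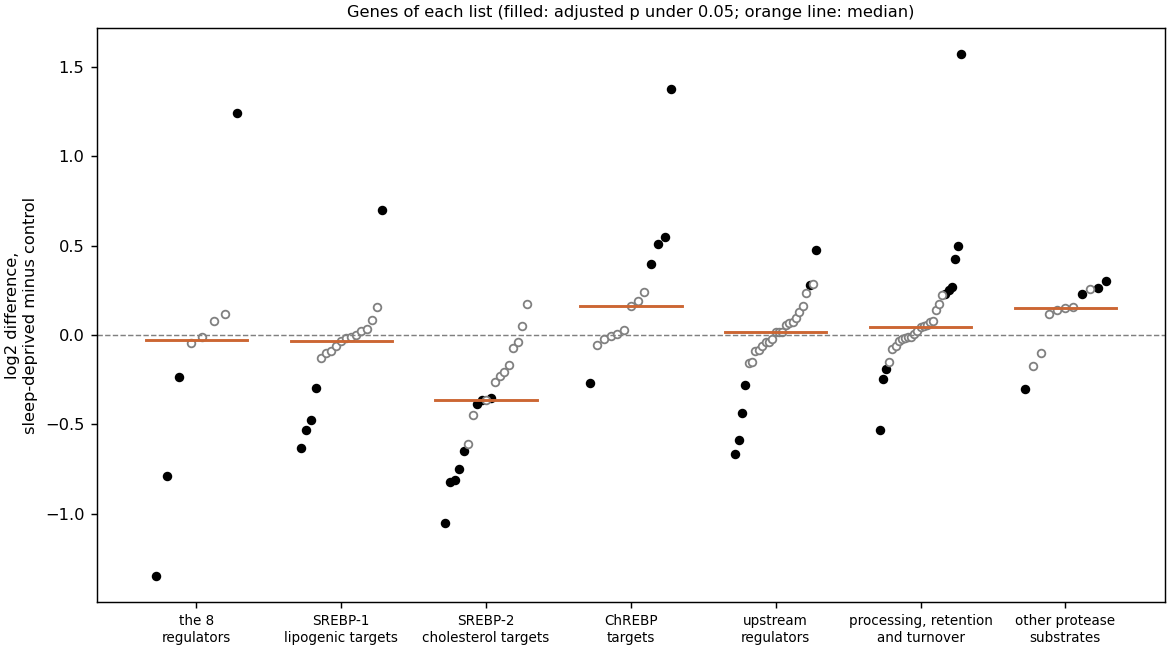
Log2 difference, sleep-deprived minus control, of the 8 regulators and of each measured gene in 6 lists (points, ordered within a list; filled where adjusted p was under 0.05), with the median of each list as an orange line. The cholesterol targets have the lowest median (-0.37), and the regulators spread from -1.35 (Srebf1) to 1.24 (Insig2).

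Of 25 measured genes acting upstream of these regulators, 2 rose, 4 fell and 19 did not pass. The share that passed was 8.5% over all genes and 20.4% over the brighter genes tested alone, and no set test was run. Mlxip, which encodes MondoA, the paralogue of ChREBP, rose by 0.48 ± 0.077 with no overlap between groups (5.78 to 6.17 in controls, 6.22 to 6.65 after sleep deprivation, limma, adjusted p = 0.000369). Foxo1, a transcription factor restrained by insulin, also rose without overlap (0.28 ± 0.060). Nfyb, a subunit of NF-Y, fell without overlap (-0.44 ± 0.090), from levels of 5.92 to 6.53 to levels of 5.40 to 5.85. Nr1d1, the clock repressor REV-ERB alpha, was at -0.67 ± 0.15, and Bhlhe41 and Ppargc1b were the other falls. Nr1h3, the liver X receptor alpha that activates Srebf1, was at 0.093 ± 0.058 (limma, adjusted p = 0.431). The insulin receptor substrate Irs2 was at 0.28 ± 0.13 (adjusted p = 0.206). Mlx, the DNA-binding partner of ChREBP and a member of its target list, was at 0.19 ± 0.066 (adjusted p = 0.0925), and passed without sleep-deprived mouse 10 (0.0355).

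Processing, retention and turnover of SREBPs was covered by 27 measured genes, of which 6 rose, 3 fell and 18 did not pass, with a median of 0.045. The share that passed was 8.5% over all genes and 20.4% over the brighter genes tested alone. Lpin1, a phosphatidate phosphatase that also restrains nuclear SREBP, rose by 1.57 ± 0.12, from 9.80 to 10.82 in controls to 11.53 to 11.92 after sleep deprivation. Sec24d and Sec23a, coat proteins of the vesicles that leave the endoplasmic reticulum, rose by 0.50 ± 0.058 and 0.25 ± 0.053. Hsp90aa1, a chaperone of the SREBP and Scap complex, rose by 0.42 ± 0.076. Syvn1 and Ufd1 also rose, and both act in the degradation of proteins of the endoplasmic reticulum. Pgrmc1, a membrane protein that binds Insig1, fell by 0.19 on the log2 scale without overlap between the groups, and Erlin1 and Pcyt1a fell too.

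The site-1 and site-2 proteases also cut other membrane proteins. Of 11 measured substrates and related genes of that kind, 3 rose, 1 fell and 7 did not pass. The share that passed was 8.5% over all genes and 20.4% over the brighter genes tested alone. Atf6, a sensor of the unfolded protein response, rose by 0.30 ± 0.063, from 8.15 to 8.61 in controls to 8.55 to 8.83 after sleep deprivation. Creb3 and Atf6b rose by 0.23 ± 0.058 and 0.26 ± 0.073, and the call of Atf6b was lost without sleep-deprived mouse 2, 5 or 13 or control mouse 8 (limma, adjusted p up to 0.0578). Gnptab, a phosphotransferase subunit that the site-1 protease activates, was at -0.31 ± 0.079. The number that rose was 5 among the brighter genes alone and 5 with the sample number as a covariate.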

How the data were processed

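Liver RNA (100 ng per sample) was labelled with the Affymetrix WT PLUS kit, per the labels' protocols. The authors deposited log2 values per probe set made by RMA, per the submitters' processing notes. For the RMA version, annotation and genome build: not given in the sources used here. No detection calls are given, and RMA compresses differences of dim genes. Depth does not apply to arrays, whose number limits the precision.

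Groups came from the titles, which share no number across groups, so nothing was paired. Of 41345 probe sets, 23521 had 1 gene symbol in the platform annotation, 1814 several and 16010 none. The brightest probe set stood for a gene (22180 genes, no filter). Sleep-deprived minus control was fitted across all genes with limma 3.58.1 in R 4.3.3 (eBayes with an intensity trend, two-sided, Benjamini-Hochberg). Fits without the trend, with robust estimation, array weights, other probe set rules, normalizations, the brighter genes, the sample number as a covariate and without each mouse were the alternatives. Pairs and relations used exact permutation with scipy 1.17.1. Named were all regulators, up to 4 genes per list by adjusted p, a fixed set of well-known targets and cofactors, and from the 3 genes most like each regulator. Further called genes of the lists were named after their values were seen. The members and lists were chosen with earlier results of these data known. On simulated data (22180 genes) the fit recovered 87% of 100 genes changed by 0.5 and 100% of 100 changed by 1 on the log2 scale, with 7 false calls. The simulated noise was normal and independent between genes, and no other genes were changed, while 1886 genes passed in the real data. These figures therefore check the fit and are not the power or error rate of the real comparison.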

Additional observations from a re-analysis of the deposited data

Results flagged for a closer look

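Among 82 groups of 7 mice (41 named genes in 2 groups), 2 held a mouse far from the others, by Dixon's test of the gap over the range, which marks about 1 in 20 groups by chance. Msmo1 was at a log2 level of 7.114 in sleep-deprived mouse 2, against 5.794 to 6.346 in the other sleep-deprived mice. Gnptab was at 5.863 in sleep-deprived mouse 10, against 5.391 to 5.579 in the others.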

How the results depend on the processing

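Srebf1, Insig1 and Insig2 kept their direction and their call in all 23 alternative fits, with log2 differences from -1.44 to -1.26, from -0.87 to -0.74 and from 1.15 to 1.42. Srebf2, Mlxipl, Mbtps1 and Mbtps2 passed in none of them. Of the 8 regulators 2 or 3 were lower and 1 higher in each fit, Scap being the one that changed. Genes called without 1 mouse numbered 679 to 868 higher and 862 to 1054 lower. In the list of site-1 and site-2 protease substrates and related genes, the 3 called higher became 5 with the brighter genes alone. They became 5 with the sample number as a covariate, and 2 to 4 without 1 mouse, and the cause was not tested. Without 1 mouse, Mbtps1 minus Mbtps2 ran from -0.19 to -0.084 (adjusted p = 0.0280 to 0.345). The other 5 pairs kept their call in every alternative run on them. Averaging of probe sets could not change a pair, since each of its genes had only 1 probe set with exactly 1 gene symbol. Cholesterol targets called lower numbered 6 to 11 without 1 mouse. Sample numbers averaged 5.71 in sleep-deprived and 9.29 in control mice (exact permutation test, two-sided, p = 0.128), and whether they mark an order of work is not given.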
